A study of Rattus norvegicus with 39 samples.

Results

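The transcripts described here are those of the mitogen-activated protein (MAP) kinase cascades and of the dual-specificity phosphatases, measured in hippocampal CA1 of rats with different exposure to corticosterone. A probe set was a member when its single platform gene symbol began with Mapk, Map2k, Map3k, Map4k or Dusp. These families were chosen with earlier results of these data known. The share of members called is therefore not that of a blind choice. This gave 51 probe sets of 27 genes out of 8799 probe sets on the array. A probe set of an Affymetrix array is a group of short probes whose signals are combined into 1 value. A filter on low values, a mean over all arrays of at least 6.28 on the log2 scale, was passed by 46 members (26 genes) and by 6118 probe sets in all. The 5 members below the filter were the Map3k8 probe set, 1 of 2 for Map4k1, 1 of 4 for Mapkapk3 and 2 of 6 for Mapk14, and none of them was tested.

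The 39 animals were male Fischer 344 rats (the labels write Fisher 344) of 18 months, with 1 array per animal. LowInj animals (n = 10) had been adrenalectomized, carried a pellet of 25 mg corticosterone for 3 months and were injected with 5 mg of the hormone daily for 4 days near the end of the study. Intermediate-CORT animals (n = 9) had no adrenal glands and carried a 200 mg pellet, Low-CORT animals (n = 10) had no adrenal glands and carried the 25 mg pellet, and Sham animals (n = 10) were intact and carried an inert pellet. The study's text keeps the 25 mg animals, and names no others, on a saline and sucrose drink, and the effects of drink and dose cannot be told apart. Animals without adrenal glands also lacked the other adrenal hormones, and their pellets released corticosterone without the daily rhythm of an intact gland. Deaths were spread over 2 days, and the sources used here do not give the day of each animal. Values are RNA levels in whole CA1 tissue, in which fewer cells of a type and less RNA per cell cannot be told apart.

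MAP kinase cascades run in tiers. A MAP4K or a small GTPase switches on a MAP3K, which phosphorylates a MAP2K, which phosphorylates a MAP kinase such as Erk, Jnk or p38. In hippocampal neurons these cascades carry signals from growth factors, synaptic activity and stress to the nucleus. Dual-specificity phosphatases (Dusp) remove the activating phosphates from both the threonine and the tyrosine of a MAP kinase, and several of them are themselves transcribed when a cascade is active. Dusp1 is also a classical target induced by glucocorticoids in many cell types.

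Checks of the series as a whole came first. All 7 genes of the pyramidal and CA1 marker list that were on the array passed the filter, with a mean level over their 13 probe sets of 9.61 ± 0.23 in LowInj, 9.78 ± 0.14 in Intermediate-CORT, 9.63 ± 0.22 in Low-CORT and 9.79 ± 0.18 in Sham animals (log2, SD). The transcripts Sgk1 and Sult1a1 were then read as a description of the treatments. They were chosen with earlier results of these data known. Among all 6118 probe sets tested, Sgk1 had the lowest fold change in Low-CORT against Sham, and Sult1a1 the highest in LowInj against Low-CORT. They are therefore no independent check. Sgk1, a kinase gene induced by corticosteroids, fell by 1.50 in Low-CORT against Sham (log2, adjusted p = 2.9e-07), and by 1.38 in LowInj against Sham (adjusted p = 6.8e-06). LowInj differed from Low-CORT in Sgk1 by 0.12 (adjusted p = 0.883), which missed the threshold. Sult1a1, a sulfotransferase gene, fell by 0.98 in Low-CORT against Sham (adjusted p = 3.3e-07), rose by 1.01 in LowInj against Low-CORT (adjusted p = 3.2e-07) and differed by 0.03 in LowInj against Sham (adjusted p = 0.998). Intermediate-CORT exceeded Low-CORT in both, by 0.71 for Sgk1 (adjusted p = 0.0213) and 0.84 for Sult1a1 (adjusted p = 3.1e-05). Its differences from Sham, -0.79 for Sgk1 (adjusted p = 0.1645) and -0.135 for Sult1a1 (adjusted p = 0.998), missed the threshold. The difference between the 3′ and 5′ control probe sets, which grows as RNA or cDNA gets shorter, averaged 1.03 ± 0.60 in LowInj, 0.63 ± 0.21 in Intermediate-CORT, 0.81 ± 0.24 in Low-CORT and 0.70 ± 0.22 in Sham animals for Gapdh (log2, SD). For beta-actin it averaged 0.79 ± 0.69, 0.65 ± 0.36, 0.93 ± 0.40 and 0.68 ± 0.41 in the same 4 groups. The largest Gapdh difference, 2.41, belonged to LowInj subject 35, whose beta-actin difference, 0.04, was the lowest of all arrays. The Gapdh and beta-actin differences thus disagreed on the length of RNA or cDNA in that animal, and the cause was not tested. Every count of members called was the same without the array of LowInj subject 35.

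Most of the cascade did not pass the test in any comparison, and the calls fell on 2 genes, Map3k1 and Dusp5. Map3k1 (MEKK1), a MAP3K that acts upstream of Jnk and Erk, rose in Low-CORT animals against Sham in 2 of its 3 probe sets and was lower in Intermediate-CORT than in Low-CORT in 1. Dusp5, a nuclear phosphatase that acts on Erk, moved the other way: it fell in Low-CORT against Sham and was higher in Intermediate-CORT than in Low-CORT. Among all 6118 probe sets tested, 1.68% were called in Low-CORT against Sham at an adjusted p under 0.05 by limma. Of the 46 members 3 were called there (6.52%): 2 rose, both probe sets of Map3k1 (1.05% of all probe sets rose), and 1 fell (0.637% of all). Between Intermediate-CORT and Low-CORT 2.14% of all probe sets and 2 members were called (4.35%): 1 rose (0.637% of all) and 1 fell (1.50% of all). The moderated F test over the 4 groups called 2.27% of all probe sets and the same 2 members, Dusp5 (adjusted p = 0.0014) and the Map3k1 probe set rc_AI102620_at (adjusted p = 0.0173).

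The other comparisons held few calls of any kind. In LowInj against Intermediate-CORT 0.196% of all probe sets were called and 1 member, Dusp5, which fell (0.0817% of all fell). In Intermediate-CORT against Sham 0.0163% of all probe sets and 0 members were called by limma, with 4 members at an unadjusted p under 0.05 (8.70%, against 4.22% of all probe sets). In LowInj against Sham 0.229% of all probe sets and 0 members were called (0.131% of all rose and 0.0981% fell), with 3 members at an unadjusted p under 0.05 (6.52%, against 5.95%). LowInj against Low-CORT, the comparison that isolates the injections, called 0.343% of all probe sets and 0 members, with 3 members at an unadjusted p under 0.05 (6.52%, against 7.37%). Comparisons that share a group also share its arrays, so they are not independent of each other.

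**Figure D1:**
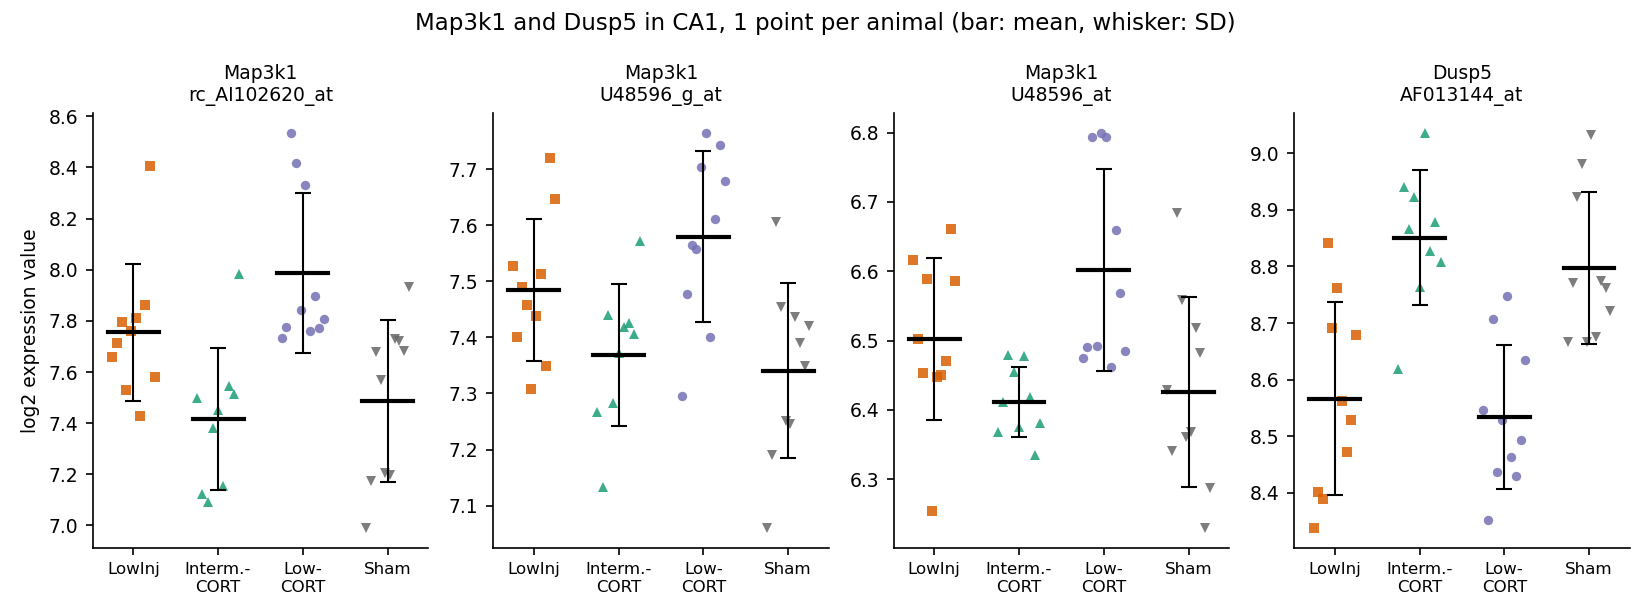
Log2 expression values of the 3 Map3k1 probe sets and of Dusp5 in CA1, 1 point per animal, in the 4 groups, with the group mean (bar) and SD (whisker) and a separate vertical scale in each panel. For rc_AI102620_at all 10 Low-CORT animals lay above the Sham mean of 7.49, and for Dusp5 all 10 lay below the Sham mean of 8.80.

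Map3k1 was read by 3 probe sets, and each is given on its own. The probe set rc_AI102620_at, in lowest, median and highest animal, had log2 values of 7.43, 7.74 and 8.40 in LowInj, 7.09, 7.45 and 7.98 in Intermediate-CORT, 7.73, 7.82 and 8.54 in Low-CORT, and 6.99, 7.62 and 7.93 in Sham animals. The lowest Low-CORT animal lay above the Sham median, yet only 3 of 10 Low-CORT animals lay above every Sham animal. Low-CORT exceeded Sham by 0.50 on the log2 scale (SE 0.13, 95% interval 0.24 to 0.75, 1.41-fold, adjusted p = 0.0247), with 10 of 10 animals above the Sham mean. This call was lost when any 1 of 7 of the 20 arrays was left out (adjusted p up to 0.0718) and when only the 2 groups were fitted (adjusted p = 0.0502). Against Low-CORT the same probe set fell in Intermediate-CORT by 0.57 (SE 0.13, adjusted p = 0.0095), a level 1.49-fold lower. All 9 Intermediate-CORT animals lay below the Low-CORT mean and 8 of them below every Low-CORT animal. With the Gapdh and beta-actin differences as covariates these changes were 0.44 (adjusted p = 0.0334) and -0.50 (adjusted p = 0.0171).

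LowInj animals stood between those of the Low-CORT and Sham groups for rc_AI102620_at. Their difference was 0.27 from Sham (95% interval 0.01 to 0.52, adjusted p = 0.82), -0.23 from Low-CORT (interval -0.49 to 0.02, adjusted p = 0.688) and 0.34 from Intermediate-CORT (interval 0.08 to 0.60, adjusted p = 0.286). None of the 3 passed the test, so the place of LowInj among the groups was not resolved. By group mean the order was Low-CORT (7.99), LowInj (7.75), Sham (7.49) and Intermediate-CORT (7.42). Of the neighbours in this order none differed by the test, and Intermediate-CORT differed from Sham by -0.07 (interval -0.33 to 0.19, adjusted p = 0.998).

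The probe set U48596_g_at had values of 7.31, 7.47 and 7.72 in LowInj, 7.13, 7.41 and 7.57 in Intermediate-CORT, 7.30, 7.59 and 7.76 in Low-CORT, and 7.06, 7.37 and 7.60 in Sham animals (lowest, median and highest). The groups overlapped, with 5 of 10 Low-CORT animals above every Sham animal. It rose by 0.24 in Low-CORT against Sham (SE 0.06, 1.18-fold, adjusted p = 0.0395, 9 of 10 animals above the Sham mean). The call was lost when any 1 of 11 of the 20 arrays was left out (adjusted p up to 0.101) and when only the 2 groups were fitted (adjusted p = 0.0917). Between Intermediate-CORT and Low-CORT its difference was -0.21 (SE 0.07, adjusted p = 0.0897), which missed the threshold.

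The probe set U48596_at had values of 6.25, 6.49 and 6.66 in LowInj, 6.33, 6.41 and 6.48 in Intermediate-CORT, 6.46, 6.53 and 6.80 in Low-CORT, and 6.23, 6.40 and 6.68 in Sham animals. Its levels lay close to the filter, and the 9 Intermediate-CORT animals spanned the narrowest range. Its differences, 0.18 in Low-CORT against Sham (SE 0.06, adjusted p = 0.0967) and -0.19 in Intermediate-CORT against Low-CORT (SE 0.06, adjusted p = 0.0722), had the signs of the other probe sets and missed the threshold. Within groups, across 39 arrays, the 3 probe sets correlated with each other at 0.21 to 0.55, a description of arrays that share their RNA and normalization.

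The Map3k1 promoter is shown because Map3k1 carried most of the calls among the kinases. It is the RefSeq sequence from 250 bases before to 50 after the gene start in the rat assembly GRCr8, at chr2:45147969-45148268 on the minus strand, written 5′ to 3′. The letters searched, on both strands, were the full glucocorticoid response element (its half-site followed after any 3 bases by the reverse complement), the half-site AGAACA alone, the cyclic AMP response element (CRE) TGACGTCA, its half-site TGACGT, the AP-1 element TGANTCA, and the CArG box bound by serum response factor. A full CRE also counts as 2 overlapping half-sites, 1 on each strand. None of the 6 occurs in this window, so no letter is in capitals.
Map3k1: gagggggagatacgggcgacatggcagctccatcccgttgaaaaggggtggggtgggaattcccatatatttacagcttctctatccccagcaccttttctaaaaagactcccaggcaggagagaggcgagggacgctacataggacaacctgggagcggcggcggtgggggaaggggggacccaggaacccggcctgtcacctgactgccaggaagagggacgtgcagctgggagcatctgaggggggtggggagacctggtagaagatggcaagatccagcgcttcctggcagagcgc

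Dusp5 was read by 1 probe set, AF013144_at. In lowest, median and highest animal it had log2 values of 8.34, 8.55 and 8.84 in LowInj, 8.62, 8.87 and 9.04 in Intermediate-CORT, 8.35, 8.51 and 8.75 in Low-CORT, and 8.67, 8.77 and 9.03 in Sham animals. The groups formed a higher pair, Intermediate-CORT and Sham, and a lower pair, LowInj and Low-CORT, with some overlap between the pairs. In Low-CORT against Sham it fell by 0.26 (SE 0.06, 1.20-fold lower, adjusted p = 0.016), with 10 of 10 animals below the Sham mean and 8 below every Sham animal. Intermediate-CORT exceeded Low-CORT by 0.32 (SE 0.06, 95% interval 0.19 to 0.45, 1.25-fold, adjusted p = 0.0031), with 9 of 9 animals above the Low-CORT mean and 8 above every Low-CORT animal.

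LowInj and Low-CORT animals had similar Dusp5 medians. The difference of LowInj from Low-CORT was 0.03 (95% interval -0.10 to 0.16, adjusted p = 0.905), while LowInj fell by 0.28 against Intermediate-CORT (SE 0.06, adjusted p = 0.0419, 10 of 10 animals below the Intermediate-CORT mean). This last call sat close to the threshold and was lost when any 1 of 15 of the 19 arrays was left out. In the same comparison 1 of 13 pyramidal and CA1 probe sets was called, Camk2a M16960_s_at, which fell by 0.57 (adjusted p = 0.0251), while the other Camk2a probe set differed by -0.10 (adjusted p = 0.654). The 2 blood probe sets, of Hbb and Alas2, averaged 10.01 to 11.19 in LowInj and 9.37 to 10.41 in Intermediate-CORT animals, and differed by 0.86 (adjusted p = 0.146) and 0.30 (adjusted p = 0.0752). Alas2 rose by 0.31 in LowInj against Low-CORT (adjusted p = 0.037). The part of these cells in the Dusp5 values was not tested. Against Sham the LowInj difference was -0.23 (SE 0.06, adjusted p = 0.155), and the difference of Intermediate-CORT from Sham was 0.05 (interval -0.08 to 0.18, adjusted p = 0.998). Across animals, after the group means were removed, Dusp5 was higher in animals with a larger Gapdh 3′ minus 5′ difference (r = 0.437, rho = 0.489, adjusted p = 0.0374 and 0.00965 by permutation within groups, n = 39, 16 relations computed). Within groups r was 0.609 in LowInj, 0.11 in Intermediate-CORT, 0.416 in Low-CORT and 0.271 in Sham, and without the 2 animals farthest out in the Gapdh difference the pooled r was 0.355. Dusp5 did not pass with the beta-actin difference (r = 0.00882, rho = 0.104, adjusted p = 0.964 and 0.591 by the same permutation). With both length differences as covariates the 3 Dusp5 changes were -0.27, 0.34 and -0.35, and all were called.

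The Dusp5 promoter, at chr1:262543524-262543823 on the plus strand of GRCr8 (RefSeq), holds the CArG box at 2 places that adjoin each other, starting 82 and 72 bases before the gene start. A CRE half-site, read on the other strand, starts 56 bases before it. Capitals mark these 3 matches. The CArG box occurs in 1.64% and the CRE half-site in 7.94% of the 33469 rat promoters of this length.
Dusp5: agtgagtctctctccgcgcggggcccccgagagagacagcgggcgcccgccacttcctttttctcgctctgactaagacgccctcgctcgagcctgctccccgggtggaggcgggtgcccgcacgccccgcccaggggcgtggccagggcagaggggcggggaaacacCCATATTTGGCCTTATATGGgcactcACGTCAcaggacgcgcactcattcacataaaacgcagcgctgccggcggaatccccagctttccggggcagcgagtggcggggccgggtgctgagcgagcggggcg

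The promoters of 23 of the 27 member genes were in the table. Besides Dusp5, Map4k1 held a CArG box. The full CRE occurred in 1 member gene, Dusp1, and in 1.83% of all promoters. Its half-site occurred in 4 of the 23 (Dusp1, Dusp5, Mapk6 and Mapk8) and in 7.94% of all promoters. The exact letters of the full glucocorticoid response element occurred in 0 of the 23 and in 0.0149% of all promoters (5 of 33469). Letters that rare cannot show that these 23 genes lack a response element. Its half-site occurred in 3 of the 23 (Map3k3, Mapk14 and Mapk8ip2) and in 20.7% of all promoters. The AP-1 letters occurred in Map3k8 and in 7.33% of all promoters. A match is a string of letters and not a measured binding site.

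**Figure D2:**
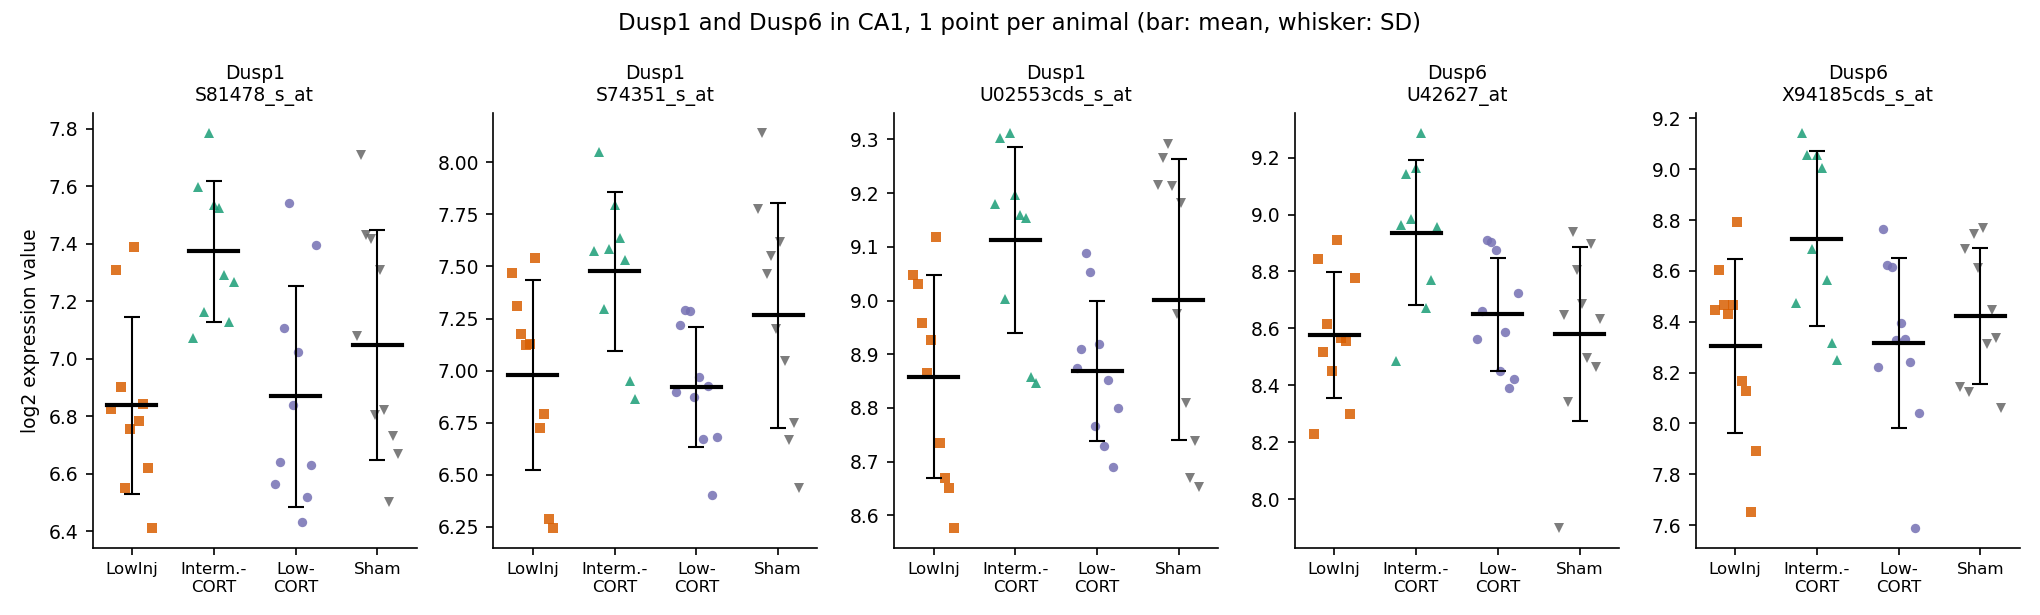
Log2 expression values of the 3 Dusp1 and 2 Dusp6 probe sets, 1 point per animal, in the 4 groups, with the group mean (bar) and SD (whisker) and a separate vertical scale in each panel. The Intermediate-CORT mean is the highest of the 4 in all 5 panels, and no difference among these probe sets passed the test.

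Dusp1 (MKP-1) is a nuclear phosphatase that acts on p38, Jnk and Erk. None of its 3 probe sets was called in any comparison. The probe set S81478_s_at had log2 values of 6.41, 6.80 and 7.39 in LowInj, 7.07, 7.29 and 7.79 in Intermediate-CORT, 6.43, 6.74 and 7.54 in Low-CORT, and 6.50, 6.95 and 7.71 in Sham animals (lowest, median and highest). The lowest Intermediate-CORT animal lay above the median of each other group, and the ranges overlapped. Its difference was 0.50 in Intermediate-CORT against Low-CORT (SE 0.15, interval 0.20 to 0.81, adjusted p = 0.0727, 9 of 9 animals above the Low-CORT mean), -0.54 in LowInj against Intermediate-CORT (SE 0.15, adjusted p = 0.12) and -0.18 in Low-CORT against Sham (SE 0.15, adjusted p = 0.644).

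The probe set S74351_s_at had values of 6.24, 7.12 and 7.54 in LowInj, 6.86, 7.57 and 8.05 in Intermediate-CORT, 6.40, 6.91 and 7.29 in Low-CORT, and 6.44, 7.33 and 8.14 in Sham animals. The Sham animals had the widest spread, so their range covered all but 2 of the LowInj and 1 of the Low-CORT animals. Intermediate-CORT differed from Low-CORT by 0.55 (SE 0.19, interval 0.18 to 0.93, adjusted p = 0.132), LowInj from Intermediate-CORT by -0.50 (SE 0.19, adjusted p = 0.283) and Low-CORT from Sham by -0.34 (SE 0.18, adjusted p = 0.417).

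The probe set U02553cds_s_at had values of 8.58, 8.90 and 9.12 in LowInj, 8.85, 9.16 and 9.31 in Intermediate-CORT, 8.69, 8.86 and 9.09 in Low-CORT, and 8.65, 9.08 and 9.29 in Sham animals. Again the ranges of all groups overlapped. Intermediate-CORT differed from Low-CORT by 0.24 (SE 0.09, interval 0.07 to 0.42, adjusted p = 0.173), LowInj from Intermediate-CORT by -0.25 (SE 0.09, adjusted p = 0.231) and Low-CORT from Sham by -0.13 (SE 0.09, adjusted p = 0.526). The injections moved no Dusp1 probe set past the test: LowInj minus Low-CORT was -0.03 (interval -0.33 to 0.26) for S81478_s_at, 0.06 (interval -0.31 to 0.43) for S74351_s_at and -0.01 (interval -0.18 to 0.16) for U02553cds_s_at. Within groups the 3 probe sets correlated at 0.676 to 0.937 across 39 arrays, which share their RNA and normalization.

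Sequence at the Dusp1 start is shown because it carries the CRE, the letters that the activity-regulated factor CREB binds. In the RefSeq promoter at chr10:17184603-17184902 on the plus strand of GRCr8, capitals mark the full CRE, which starts 124 bases before the gene start, and a CRE half-site, which starts 172 bases before it.
Dusp1: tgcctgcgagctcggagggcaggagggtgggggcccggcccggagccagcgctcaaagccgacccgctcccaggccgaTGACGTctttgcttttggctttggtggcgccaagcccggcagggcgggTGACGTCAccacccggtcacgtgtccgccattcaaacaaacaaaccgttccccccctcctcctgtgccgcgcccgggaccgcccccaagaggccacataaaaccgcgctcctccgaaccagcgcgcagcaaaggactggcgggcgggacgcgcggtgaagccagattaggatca

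Much of the spread of Dusp1 lay within groups and went with other measures. Over the mean of its 3 probe sets, after the group means were removed, Dusp1 was lower in animals with a larger beta-actin 3′ minus 5′ difference (r = -0.689, rho = -0.65, adjusted p = 1.6e-04 and 4.8e-04 by permutation within groups, n = 39). Within groups r was -0.87 in LowInj, -0.629 in Intermediate-CORT, -0.377 in Low-CORT and -0.783 in Sham, and without the 2 animals farthest out the pooled r was -0.638. With the Gapdh difference the relation did not pass (r = -0.128, rho = -0.242, adjusted p = 0.574 and 0.213). Dusp1 was also lower in animals with a later subject number within their group (r = -0.676, rho = -0.675, adjusted p = 1.6e-04 and 3.2e-04), with r of -0.763, -0.549, -0.383 and -0.883 in the same 4 groups and -0.64 without the 2 farthest animals. The beta-actin difference was itself larger in the last subject of each group than in the first. It was 2.13 against 0.25 in LowInj, 1.45 against 0.41 in Intermediate-CORT, 1.49 against 1.04 in Low-CORT and 1.52 against 0.38 in Sham. The 2 relations of Dusp1 therefore cannot be counted as separate, and their parts were not tested. The same relation did not pass for Map3k1 (r = 0.358, rho = 0.372, adjusted p = 0.0771 and 0.0606 by the same permutation). Nor did it pass for Dusp6 (r = -0.304, rho = -0.346, adjusted p = 0.135 and 0.0673) or Dusp5 (r = 0.161, rho = 0.171, adjusted p = 0.468 and 0.402). The sources used here do not say what the subject numbers followed, such as the day or order of death. For U02553cds_s_at the first 5 subjects of each group averaged 8.97 in LowInj, 9.20 in Intermediate-CORT, 8.94 in Low-CORT and 9.19 in Sham, and the later subjects 8.75, 9.00, 8.80 and 8.81 in the same groups.

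With the length differences as covariates, Intermediate-CORT minus Low-CORT was 0.46 for S81478_s_at (adjusted p = 0.0715), 0.36 for S74351_s_at (adjusted p = 0.0714) and 0.17 for U02553cds_s_at (adjusted p = 0.192). With the place of the subject number as a covariate it was 0.48 (adjusted p = 0.0558), 0.50 (adjusted p = 0.011) and 0.22 (adjusted p = 0.0327) for the same probe sets, so 2 of the 3 were called in that fit. Counting that fit, this difference was called in 2 of 7 alternative settings for S81478_s_at (lowest adjusted p = 0.0279 by limma). It was called in 3 of 7 for S74351_s_at and in 1 of 8 for U02553cds_s_at.

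**Figure D3:**
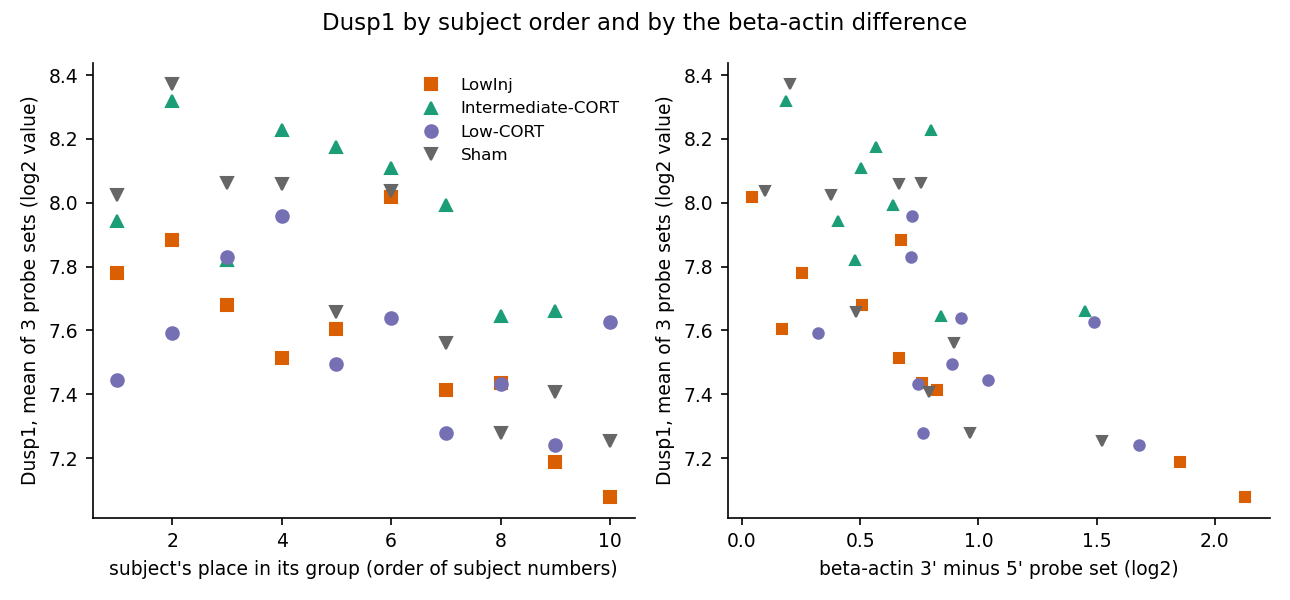
Mean log2 value of the 3 Dusp1 probe sets for each animal against the place of its subject number in its group (left) and against the beta-actin 3′ minus 5′ difference (right), with 1 symbol per group. Values run lower to the right in both panels, with a pooled within-group r of -0.676 on the left and -0.689 on the right.

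Dusp6 (MKP-3) is a cytoplasmic phosphatase specific for Erk, and Erk activity induces it. The probe set U42627_at had values of 8.23, 8.56 and 8.91 in LowInj, 8.48, 8.96 and 9.29 in Intermediate-CORT, 8.39, 8.62 and 8.91 in Low-CORT, and 7.90, 8.64 and 8.94 in Sham animals. Intermediate-CORT stood highest by median, with 6 of 9 animals above every Low-CORT and 6 above every Sham animal. Its differences were 0.36 against Sham (SE 0.11, adjusted p = 0.67) and 0.29 against Low-CORT (SE 0.11, adjusted p = 0.223), and LowInj differed from Intermediate-CORT by -0.36 (SE 0.11, adjusted p = 0.172).

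The probe set X94185cds_s_at had values of 7.65, 8.44 and 8.79 in LowInj, 8.25, 8.69 and 9.14 in Intermediate-CORT, 7.59, 8.33 and 8.77 in Low-CORT, and 8.06, 8.39 and 8.77 in Sham animals. The 4 ranges overlapped. Its difference was 0.41 in Intermediate-CORT against Low-CORT (SE 0.14, adjusted p = 0.15), -0.42 in LowInj against Intermediate-CORT (SE 0.14, adjusted p = 0.222) and -0.11 in Low-CORT against Sham (SE 0.14, adjusted p = 0.802). The 2 Dusp6 probe sets correlated within groups at 0.546 over the 39 arrays.

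Across animals, after the group means were removed, Dusp6 went with Dusp1 (r = 0.485, rho = 0.518, adjusted p = 0.00966 and 0.00757 by permutation within groups). Within groups r was 0.798 in LowInj, 0.579 in Intermediate-CORT, 0.763 in Low-CORT and 0.0975 in Sham, so the Sham animals did not show it, and without the 2 animals farthest out in Dusp6 the pooled r was 0.55. Dusp6 was also lower with a larger beta-actin difference (r = -0.517, rho = -0.477, adjusted p = 0.00368 and 0.00928), and the part of the actin difference in the relation of Dusp1 and Dusp6 was not tested. With the Gapdh difference Dusp6 did not pass (r = -0.0218, rho = -0.151, adjusted p = 0.955 and 0.402). Dusp5 did not pass with Dusp1 (r = 0.188, adjusted p = 0.405) or with Dusp6 (r = 0.297, adjusted p = 0.135).

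Dusp4, another nuclear phosphatase of the family, and Dusp7, a cytoplasmic Erk phosphatase, stayed within narrow ranges. Dusp4 had medians of 7.89 in LowInj, 7.92 in Intermediate-CORT, 7.86 in Low-CORT and 7.97 in Sham, and Dusp7 had 8.54 in LowInj, 8.54 in Intermediate-CORT, 8.52 in Low-CORT and 8.54 in Sham. The extremes among their 12 differences were -0.06 and 0.05, both for Dusp4.

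As a family, the 8 Dusp probe sets of 5 genes had a median difference of 0.30 in Intermediate-CORT against Low-CORT, where all 6118 probe sets had 0.01. All 8 were positive, 1 rose and 7 were not called, and 6 had an unadjusted p under 0.05 (75%, against 11.9% of all probe sets). In LowInj against Intermediate-CORT the median was -0.32 (all probe sets 0.02), 6 of 8 were negative and 1 fell. In Low-CORT against Sham it was -0.12 (all probe sets -0.01), with 7 of 8 negative and 1 fallen. In the other 3 comparisons 0 were called. The median was 0.16 in Intermediate-CORT against Sham, with 7 of 8 positive and 3 at an unadjusted p under 0.05 (37.5%, against 4.22% of all probe sets). It was -0.13 in LowInj against Sham, with 7 of 8 negative and 1 at an unadjusted p under 0.05 (12.5%, against 5.95%), and 0.01 in LowInj against Low-CORT, with 4 of 8 positive. Counts over 8 probe sets of 5 genes give few independent values, since Dusp1 supplied 3 of them and Dusp6 supplied 2.

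Neuronal and astrocyte marker lists also had positive medians in Intermediate-CORT against Low-CORT. The medians were 0.14 for 13 probe sets of pyramidal and CA1 genes (0 called), 0.17 for 6 of CA3 and CA2 (0 called) and 0.18 for 6 of interneurons (0 called). For 12 astrocyte probe sets the median was 0.08, with 10 positive, 2 negative and 0 called. Medians of the oligodendrocyte, microglial, endothelial, choroid plexus and blood lists were negative there (-0.01, -0.13, -0.01, -0.08 and -0.10). The dentate list held 1 tested probe set, Calb1, which rose by 0.60 (adjusted p = 9.0e-04). That 1 gene cannot show a change in dentate cells. The part of these cell types in the Dusp values was not tested.

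In the MAP3K tier the calls were those of Map3k1. Map3k12 (DLK), an axonal injury kinase upstream of Jnk, had 9.45, 9.80 and 9.89 in LowInj, 9.63, 9.84 and 9.91 in Intermediate-CORT, 9.68, 9.92 and 10.08 in Low-CORT, and 9.56, 9.78 and 9.87 in Sham animals. Low-CORT stood highest, with 6 of 10 animals above every Sham animal. The difference of Low-CORT from Sham was 0.13 (SE 0.06, adjusted p = 0.271). LowInj differed from Low-CORT by -0.14 (SE 0.06, adjusted p = 0.566).

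Map3k3 (MEKK3), which feeds the Erk5 cascade, and Map3k9, a mixed-lineage kinase, differed by 0.09 and -0.10 in Low-CORT against Sham, and neither was called. Map3k8 (Tpl2) lay far below the filter, between 3.56 and 3.95 in all 39 animals. Over the 6 tested MAP3K probe sets the median difference was 0.15 in Low-CORT against Sham, with 2 risen, and -0.13 in Intermediate-CORT against Low-CORT, with 1 fallen. Map3k1 supplied 3 of these 6.

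Some microglial and endothelial marker genes changed in the direction of Map3k1. Of 9 microglial probe sets 1 rose in Low-CORT against Sham and 2 fell in Intermediate-CORT against Low-CORT, and of 5 endothelial ones 1 rose and 1 fell in the same comparisons. The median differences of these lists were 0.05 and 0.03 in Low-CORT against Sham (3 of 9 and 1 of 5 negative) and -0.13 and -0.01 in Intermediate-CORT against Low-CORT (8 of 9 and 4 of 5 negative). In Low-CORT against Sham, Aif1 of microglia rose by 0.53 in U10894_s_at (adjusted p = 0.0397) and Slco1a4 of endothelium by 0.56 (adjusted p = 4.2e-04). The other Aif1 probe sets differed by 0.44 in U17919_s_at (adjusted p = 0.2) and -0.05 in U33471_at (adjusted p = 0.797) without passing. Against Low-CORT, Aif1 fell in Intermediate-CORT by 0.54 in U10894_s_at (adjusted p = 0.0335, with -0.40 and 0.00 in the other 2), Cd53 of microglia by 0.25 (adjusted p = 0.0229) and Slco1a4 by 0.59 (adjusted p = 3.5e-04). The list means ran from 7.52 to 7.92 in LowInj, 7.53 to 7.87 in Intermediate-CORT, 7.64 to 8.00 in Low-CORT and 7.53 to 7.85 in Sham animals for 9 microglial probe sets. Of 12 oligodendrocyte probe sets 1 rose in Low-CORT against Sham, that of Klk6 by 0.45 (adjusted p = 0.0081), where the list median was 0.01 with 5 negative, among them all 3 of Mag (-0.22, -0.15 and -0.10). Of 6 interneuron probe sets, all negative, 1 fell, that of Gad1 by 0.31 (adjusted p = 0.0076), and Calb1, alone in the dentate list, fell by 0.61 (adjusted p = 4.6e-04). Pyramidal and CA1 probe sets were negative in 11 of 13 there (median -0.13, 0 called) and positive in 2. Those of astrocytes were negative in 11 of 12 (median -0.16, 0 called) and positive in 1. The part of these cell types in the Map3k1 and Dusp5 changes was not tested.

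Map3k1 was also higher in animals with a larger beta-actin difference, over the mean of its 3 probe sets (r = 0.488, rho = 0.49, adjusted p = 0.00824 and 0.0092, and 0.44 without the 2 farthest animals). Within groups r was 0.601 in LowInj, 0.92 in Intermediate-CORT, -0.0722 in Low-CORT and 0.735 in Sham. With the Gapdh difference Map3k1 did not pass (r = 0.235, rho = 0.327, adjusted p = 0.226 and 0.0673). Map3k1 and Dusp5, which changed in opposite directions between groups, showed no passing relation within groups (r = 0.113, rho = 0.0387, adjusted p = 0.586 and 0.818).

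**Figure D4:**
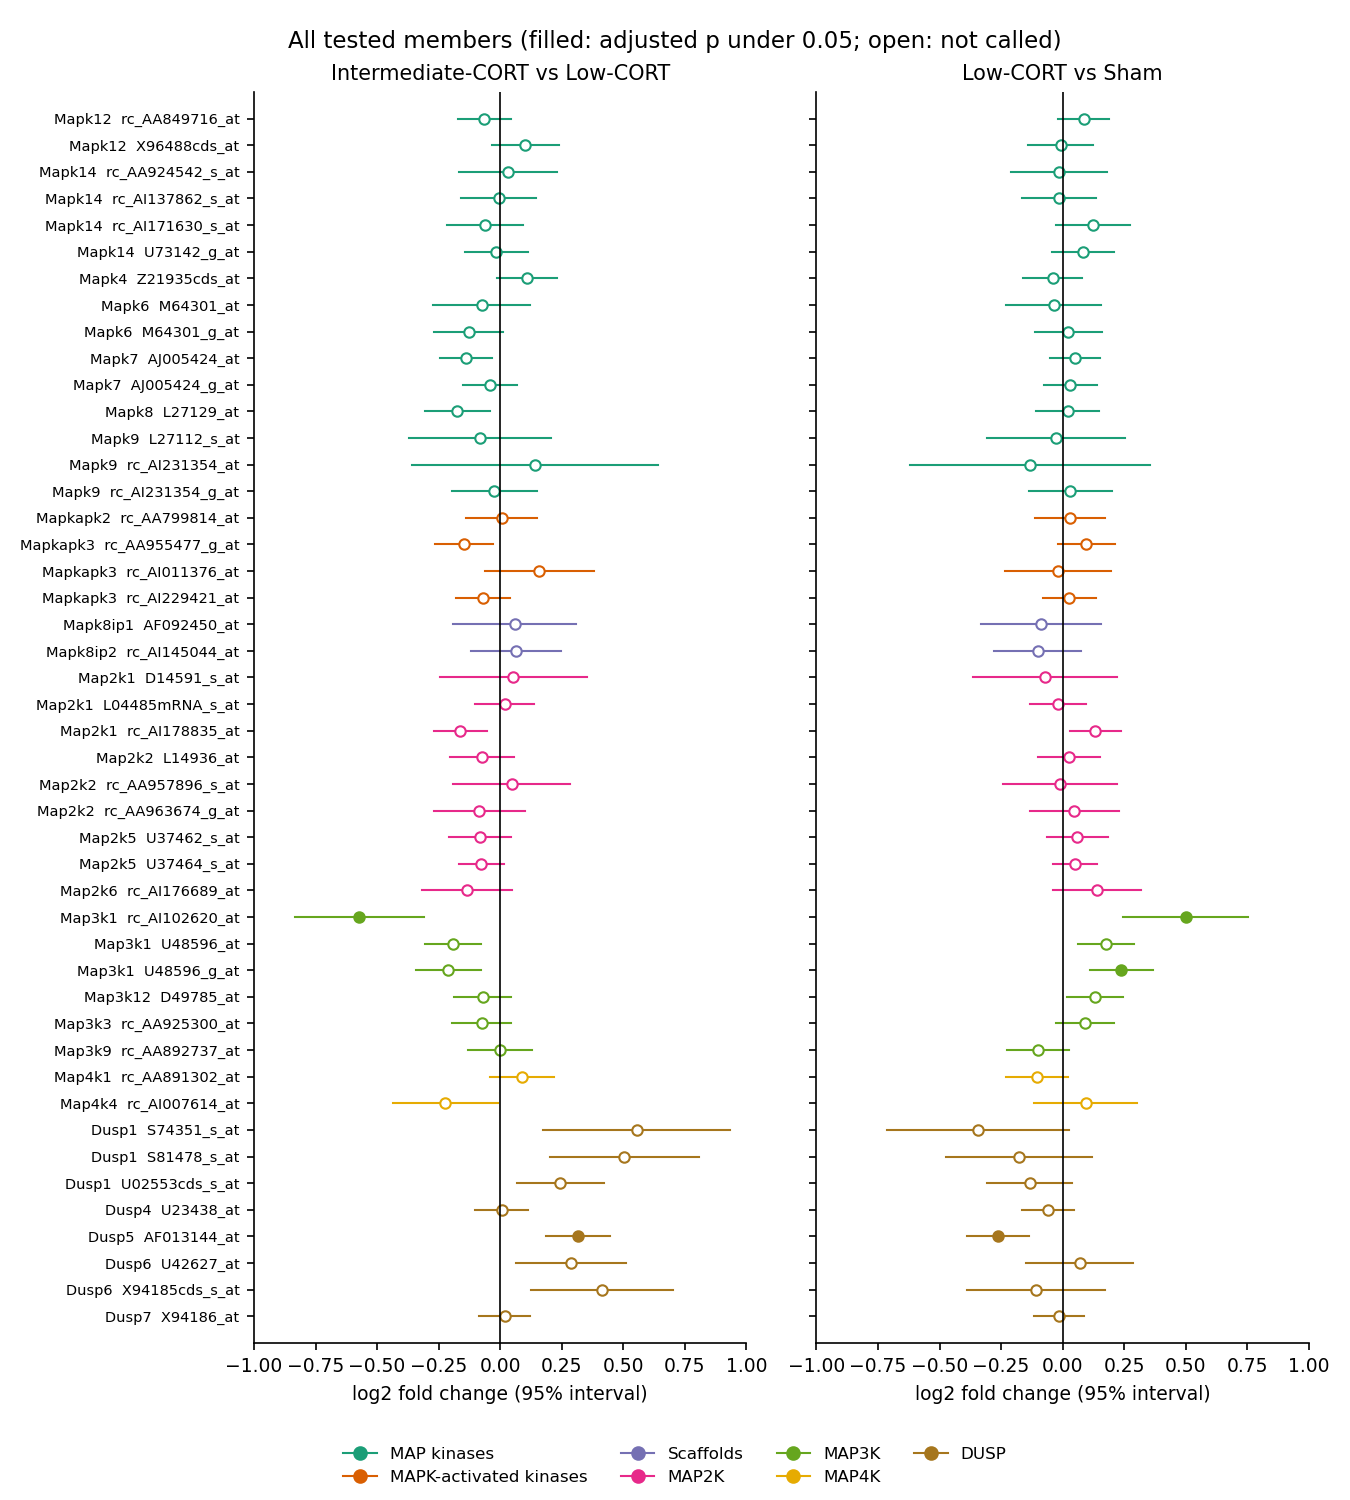
Log2 fold change with its 95% interval for each of the 46 tested members, coloured by family, in Intermediate-CORT against Low-CORT (left) and Low-CORT against Sham (right), with filled points for an adjusted p under 0.05. The extremes of both panels are Map3k1 rc_AI102620_at and Dusp1 S74351_s_at. Outside Map3k1 and the Dusp family the fold changes run from -0.22 to 0.16 on the left and from -0.13 to 0.14 on the right.

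Outside Map3k1 and the Dusp family, 35 tested probe sets were left, and 0 were called by limma in any of the 6 comparisons. At an unadjusted p under 0.05 there were 5 of 35 in Intermediate-CORT against Low-CORT (14.3%, against 11.9% of all probe sets), 5 in LowInj against Intermediate-CORT (14.3%, against 11.4%) and 3 in LowInj against Low-CORT (8.57%, against 7.37%). Against Sham there were 2 in Low-CORT (5.71%, against 13.6% of all), 1 in Intermediate-CORT (2.86%, against 4.22%) and 0 in LowInj (against 5.95%). Their largest differences in Intermediate-CORT against Low-CORT were -0.22 for Map4k4 and 0.16 for a Mapkapk3 probe set. That Mapkapk3 value, from rc_AI011376_at, leaned on 1 animal: the group medians were 7.05 in Intermediate-CORT and 6.97 in Low-CORT, and the highest Intermediate-CORT animal had 8.37.

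Among the MAP4K genes, Map4k4 feeds the Jnk cascade. It had 7.11, 7.46 and 7.84 in LowInj, 6.79, 7.25 and 7.62 in Intermediate-CORT, 7.04, 7.42 and 7.97 in Low-CORT, and 6.91, 7.44 and 7.53 in Sham animals. Intermediate-CORT was lowest by median, with overlap. Its difference from Low-CORT was -0.22 (SE 0.11, adjusted p = 0.394), and LowInj differed from Intermediate-CORT by 0.24 (SE 0.11, adjusted p = 0.369). Map4k1 (HPK1), a kinase known from blood cells, differed by -0.10 in Low-CORT against Sham (adjusted p = 0.491).

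The MAP2K tier was read by 9 probe sets of 4 genes. Map2k1 (MEK1), which phosphorylates Erk, was read by 3 that did not go together. Its probe set rc_AI178835_at had 7.83, 8.04 and 8.16 in LowInj, 7.82, 7.95 and 8.20 in Intermediate-CORT, 7.98, 8.15 and 8.34 in Low-CORT, and 7.85, 8.00 and 8.16 in Sham animals. Low-CORT was highest, and 7 of 9 Intermediate-CORT animals lay below every Low-CORT animal. The difference of Intermediate-CORT from Low-CORT was -0.16 (SE 0.05, adjusted p = 0.117). The other 2 probe sets differed by 0.02 and 0.05 in that comparison, and within groups they correlated with rc_AI178835_at at -0.384 and -0.389 and with each other at 0.518 over 39 arrays.

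Map2k2 (MEK2), the second kinase of Erk, had 3 probe sets with differences of -0.08, -0.07 and 0.05 in Intermediate-CORT against Low-CORT. Map2k5, the kinase of Erk5, had 2 with -0.12 and -0.10 in LowInj against Low-CORT (adjusted p = 0.688 and 0.634). Map2k6, a kinase of p38, differed by 0.14 in Low-CORT against Sham (SE 0.09, adjusted p = 0.515). Over the 9 probe sets the median was 0.05 in Low-CORT against Sham and -0.08 in Intermediate-CORT against Low-CORT, and 0 were called.

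The MAP kinases themselves were read by 15 tested probe sets of 7 genes, and 0 were called in any comparison. Mapk8 (Jnk1) had 6.60, 6.79 and 6.94 in LowInj, 6.38, 6.57 and 6.87 in Intermediate-CORT, 6.54, 6.76 and 7.01 in Low-CORT, and 6.59, 6.70 and 7.01 in Sham animals. Intermediate-CORT was lowest by median, and the groups overlapped. Its difference was -0.17 in Intermediate-CORT against Low-CORT (SE 0.07, adjusted p = 0.21) and 0.18 in LowInj against Intermediate-CORT (SE 0.07, adjusted p = 0.257, 10 of 10 animals above the Intermediate-CORT mean).

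Mapk7 (Erk5), the end of the Map2k5 cascade, differed by -0.14 in Intermediate-CORT against Low-CORT in AJ005424_at (SE 0.05, adjusted p = 0.211) and by -0.04 in AJ005424_g_at. Mapk9 (Jnk2) had the widest spread of the tier in rc_AI231354_at, with lowest and highest values of 5.88 and 7.99 in LowInj, 6.06 and 7.75 in Intermediate-CORT, 5.92 and 7.93 in Low-CORT, and 5.81 and 7.74 in Sham animals. For that probe set the interval of Low-CORT minus Sham ran from -0.62 to 0.35, which is wide enough to hold a fall larger than that of Dusp5.

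Mapk14 (p38 alpha) was read by 4 tested probe sets, which differed by -0.01 to 0.12 in Low-CORT against Sham and by -0.06 to 0.03 in Intermediate-CORT against Low-CORT. Mapk12 (p38 gamma), Mapk6 (Erk3) and Mapk4 (Erk4) had differences between -0.13 and 0.11 in Intermediate-CORT against Low-CORT. Over all 15 the median was 0.02 in Low-CORT against Sham and -0.04 in Intermediate-CORT against Low-CORT.

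Kinases switched on by p38 were the next group. Mapkapk2 (MK2) had medians of 8.16 in LowInj, 8.12 in Intermediate-CORT, 8.05 in Low-CORT and 8.01 in Sham, and LowInj differed from Sham by 0.13 (SE 0.07, adjusted p = 0.846), with 10 of 10 animals above the Sham mean. Mapkapk3 (MK3) in rc_AA955477_g_at had 7.69, 7.87 and 8.25 in LowInj, 7.69, 7.74 and 7.89 in Intermediate-CORT, 7.72, 7.89 and 8.17 in Low-CORT, and 7.63, 7.88 and 7.93 in Sham animals. All 9 Intermediate-CORT animals lay below the Low-CORT mean, and the difference was -0.15 (SE 0.06, adjusted p = 0.258). The scaffold genes Mapk8ip1 and Mapk8ip2, which hold the Jnk cascade together, differed by -0.09 and -0.10 in Low-CORT against Sham (adjusted p = 0.815 and 0.665) and by 0.06 and 0.07 in Intermediate-CORT against Low-CORT.

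Genes around the cascades were counted as 3 further lists. Upstream regulators (22 of 44 genes tested, 36 probe sets) had a median difference of 0.02 in Low-CORT against Sham and 0.00 in Intermediate-CORT against Low-CORT. In Low-CORT against Sham 0 rose and 1 fell: Errfi1, a feedback inhibitor of the epidermal growth factor receptor, in rc_AI169756_s_at. It had means of 7.09 in Low-CORT and 7.55 in Sham, and its second probe set differed by -0.23 (adjusted p = 0.0977). In LowInj against Sham the first one also fell, by 0.44 (adjusted p = 0.0046). In Intermediate-CORT against Low-CORT 1 probe set fell, that of the small GTPase gene Cdc42 in rc_AI227887_g_at, by 0.25 (adjusted p = 0.0443), and the other 3 of Cdc42 differed by -0.23, -0.11 and -0.04 without passing.

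Transcription factors and other targets of MAP kinases (15 of 37 genes tested, 28 probe sets) had 0 calls in 5 of the 6 comparisons. The exception was Intermediate-CORT against Low-CORT, where 1 rose and 2 fell. Jun, the Jnk target of the AP-1 complex, fell by 0.50 in rc_AA945867_at (SE 0.13, adjusted p = 0.0301) and by 0.38 in rc_AA944014_at (SE 0.09, adjusted p = 0.0122). Its other 2 probe sets differed by -0.35 (adjusted p = 0.0715) and 0.00 (adjusted p = 0.994). Fos, the partner of Jun, rose by 0.30 in X03347cds_g_at (SE 0.07, adjusted p = 0.008), while its other 2 probe sets differed by 0.16 and 0.08 without passing. Phosphatases and scaffolds outside the Dusp family (7 of 11 genes tested, 13 probe sets), such as Ptpn5 and Pea15, had 0 calls in every comparison, and 11 of 13 were positive in Intermediate-CORT against Low-CORT with a median of 0.06.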

How the data were processed

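The deposited table holds 1 column of log2 expression values for each of 39 Affymetrix arrays, 1 per animal, and no scanner intensities were analysed here. Per the submitters' processing notes, MAS5, RMA and R 2.7.1 were used, with no role given for each, and the sources used here do not say which of them made the deposited log2 values. Array medians lay between 7.27 and 7.33, and no further normalization was applied. Per the labels' protocols, biotin-labelled cRNA was made from total RNA of each CA1 block. Arrays have no read depth, and their number limits the precision.

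Groups were taken from the labels. After 59 control probe sets were left out, probe sets with a mean over all arrays at or above the 30th percentile entered a limma 3.58.1 fit (R 4.3.3) of the 4 group means over the 39 arrays, with variances moderated across probe sets (residual df 35). The 6 comparisons and an F test were each adjusted by Benjamini-Hochberg over 6118 probe sets, two-sided, and called at an adjusted p under 0.05. Every adjusted p printed for a gene comes from limma. The procedure was tested on simulated data. Gene names come from the platform annotation. A probe set with several symbols was left out of the members. Levels are never compared between probe sets, and a group's values are its lowest, median and highest animal or its mean ± SD. Relations across animals used values with group means removed, 1e+05 permutations within groups and adjustment over 16 relations.

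Named probe sets were those of Map3k1 and Dusp1, every member called, and in each family the 4 with the smallest F p, the one with the highest mean and their other probe sets. Others are named for their level or for an extreme. Of the genes around the cascades, those called are named. The members, the lists and the tests were chosen with earlier results of these data known. Alternatives were no filter, a filter at the 50th percentile, quantile normalization, array weights, the 3′ minus 5′ differences as covariates, the place of the subject number as a covariate, a robust trended variance, only the 2 groups compared, and leaving out each array. Leaving out LowInj subject 35 from all counts was added after seeing the data.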

Additional observations from a re-analysis of the deposited data

Results flagged for a closer look

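The spread within each group was checked for 37 named probe sets, and in 8 of the 148 checks 1 animal stood far from the rest of its group by Dixon's criterion, where chance flags about 1 in 20 groups. Map3k1 was 8.40 on the log2 scale in LowInj subject 38 for rc_AI102620_at, against 7.43 to 7.86 in the other LowInj animals, and 6.25 in LowInj subject 34 for U48596_at, against 6.45 to 6.66. Mapkapk3 rc_AI011376_at was 8.37 in Intermediate-CORT subject 16, against 6.86 to 7.24. Mapk8ip2 was 12.21 in LowInj subject 34, against 11.29 to 11.77, and 12.18 in Sham subject 6, against 11.41 to 11.59. Map2k2 L14936_at was 9.45 in Sham subject 6, against 8.84 to 9.08. Map2k2 rc_AA957896_s_at was 10.24 in Intermediate-CORT subject 16, against 9.16 to 9.47, and 9.99 in Sham subject 6, against 9.09 to 9.51. Sham subject 6 and Intermediate-CORT subject 16 thus supplied 5 of the 8 values, all at the high end, and none of the probe sets behind those 5 was called. Of all the flagged probe sets only Map3k1 rc_AI102620_at was called, in Low-CORT against Sham, in Intermediate-CORT against Low-CORT and by the F test.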

How the results depend on the processing

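Of 55 differences of named members, 39 kept their direction and their side of the threshold under all of the 8 other settings run for them. The number of members called in Low-CORT against Sham was 3, and 1 (Dusp5) when only the arrays of the 2 groups were fitted. In Intermediate-CORT against Low-CORT it was 2, against 10 with array weights, 5 with the subject number as a covariate and 4 with only the 2 groups. In LowInj against Sham it was 0, against 1 (Dusp5) with array weights and 1 with the length covariates. In LowInj against Intermediate-CORT it was 1, against 0 without a filter, 0 with the filter at the 50th percentile, 0 after quantile normalization and 0 with only the 2 groups. The F test called 2, against 4 with array weights and 5 with the subject number. The calls among all probe sets under these settings are not given here. These counts can therefore not be read as a result about the members. The cause was not tested. Differences that changed sign were all uncalled: Mapk8ip1 in LowInj against Sham (0.0022), Mapk14 rc_AA924542_s_at in LowInj against Intermediate-CORT (0.0553), Map2k2 rc_AA957896_s_at in LowInj against Low-CORT (-0.0273 with array weights, -0.0267 with length covariates) and Dusp6 X94185cds_s_at in Low-CORT against Sham (0.0222), the others with length covariates.

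Leaving out each array in turn, Map3k1 rc_AI102620_at ran from 0.44 to 0.55 in Low-CORT against Sham, and the call was lost (adjusted p up to 0.0718) without Low-CORT subject 22, 23 or 25 or Sham subject 1, 2, 5 or 6. In Intermediate-CORT against Low-CORT it ran from -0.64 to -0.51 and stayed called. U48596_g_at ran from 0.21 to 0.27 in Low-CORT against Sham and lost its call without Low-CORT subject 22, 23, 24, 25, 27, 28 or 29 or Sham subject 1, 2, 5 or 6 (adjusted p up to 0.101), and in Intermediate-CORT against Low-CORT it was called without Intermediate-CORT subject 19 or Low-CORT subject 20. U48596_at was called in Low-CORT against Sham without Sham subject 3, and in Intermediate-CORT against Low-CORT without Low-CORT subject 20 or 26. Dusp5 stayed called from -0.29 to -0.24 in Low-CORT against Sham and from 0.29 to 0.35 in Intermediate-CORT against Low-CORT. In LowInj against Intermediate-CORT it ran from -0.31 to -0.26, and its call was lost (adjusted p up to 0.133) without LowInj subject 30, 31, 32, 34, 36, 37 or 38 or Intermediate-CORT subject 12, 13, 14, 15, 16, 17, 18 or 19. Dusp1 S81478_s_at in Intermediate-CORT against Low-CORT was called without Low-CORT subject 23 (adjusted p = 0.0231) or 29 (adjusted p = 0.0383).

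No paired analysis was possible because each subject number belongs to 1 animal. No background or detection values were analysed here, so the limit set by signal over background was not assessed.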
